A study of Sus scrofa with 27 samples.

Results

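The 10 genes examined here belong to pulmonary surfactant and to the alveolar type 2 cell that makes it: SFTPA1, SFTPB, SFTPC, SFTPD, ABCA3, LAMP3, NAPSA, LPCAT1, NKX2-1 and SLC34A2. They were taken by name from a table of counts for 31908 pig genes. 9 of the 10 had a row under their name, and each of these had more than 10 counts in every one of the 27 libraries. LAMP3, which codes for a glycoprotein of the lamellar body membrane, had no row under that name and is not analysed here. The libraries came from lung biopsies of 9 Large-White pigs whose lungs underwent ex vivo lung perfusion (EVLP), in which an explanted lung is ventilated and perfused on a circuit. All lungs, controls included, were harvested in a non-heart-beating donor model, kept in cold ischemia and perfused for 12h by the Toronto protocol with Steen solution holding methylprednisolone, cefuroxime and heparin. In the Gold Standard (GS) group of 5 pigs (numbers 9, 17, 44, 55 and 77) part of the perfusate was exchanged at fixed intervals, and in the Pediatric Dialysis (PD) group of 4 pigs (numbers 2, 3, 4 and 5) the circuit carried continuous veno-venous hemodialysis with a pediatric membrane instead. Each lung gave a biopsy at 0h, before perfusion, at 6h and at 12h. The PD lungs were those of an earlier study by the same group, and the GS lungs were a separate set. The ages of the pigs are not given in the sources used here.

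Surfactant is a film of phospholipid and protein that lowers surface tension in the alveolus. The alveolar type 2 cell stores it in lamellar bodies, which are lysosome-related organelles, and secretes it by exocytosis. The transcription factor NKX2-1 acts on the promoters of surfactant protein genes in lung epithelium, together with FOXA factors. SFTPB and SFTPC are small hydrophobic proteins that spread the lipid film, while SFTPA1 and SFTPD are collectins, soluble lectins that bind microbes. ABCA3 pumps phospholipid into the lamellar body, NAPSA is an aspartic protease that trims the SFTPB precursor, LPCAT1 makes dipalmitoyl phosphatidylcholine, and SLC34A2 carries phosphate out of the alveolar fluid into the cell.

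On Sscrofa11.1, SFTPC (ENSSSCG00000009619) lay at chr14:6440309-6443095, SFTPB (ENSSSCG00000008229) at chr3:59101952-59111834 and NKX2-1 (ENSSSCG00000001945) at chr7:63487807-63491575, all on the plus strand. SFTPA1 (ENSSSCG00000010336, chr14:82091178-82107675, minus strand) and SFTPD (ENSSSCG00000010334, chr14:82051451-82067976, plus strand) were neighbours. The others were ABCA3 (ENSSSCG00000008051, chr3:39689202-39732979), NAPSA (ENSSSCG00000003212, chr6:55221204-55230449, minus strand), LPCAT1 (ENSSSCG00000017116, chr16:79134465-79173775) and SLC34A2 (ENSSSCG00000008758, chr8:19481198-19509667).

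The 250 bases before the RefSeq transcription start are shown for SFTPB, whose level differed between the groups before perfusion, and for NKX2-1, the regulator among these genes. They were read from the Sscrofa11.1 genome on the plus strand, 5′ to 3′, at chr3:59101690-59101939 and chr7:63486950-63487199. Capitals mark an NKX2 core (CAAGTG) or a FOXA core (TGTTTAC or TGTTTGC) on either strand.
SFTPB: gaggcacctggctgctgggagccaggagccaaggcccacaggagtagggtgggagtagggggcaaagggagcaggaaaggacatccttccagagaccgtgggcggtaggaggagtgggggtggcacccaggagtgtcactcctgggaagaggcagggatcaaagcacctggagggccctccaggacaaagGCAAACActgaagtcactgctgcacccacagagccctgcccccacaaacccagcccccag
NKX2-1: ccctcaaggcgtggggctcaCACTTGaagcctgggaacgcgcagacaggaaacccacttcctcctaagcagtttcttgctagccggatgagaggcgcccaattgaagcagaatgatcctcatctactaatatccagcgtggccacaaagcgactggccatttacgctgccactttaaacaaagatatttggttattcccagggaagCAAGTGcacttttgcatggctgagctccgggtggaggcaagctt
SFTPB held a FOXA core in reverse orientation 60 bases before the start, and NKX2-1 held an NKX2 core 230 and 44 bases before its start. The window of NAPSA held a FOXA core at 139 bases. Of the 10 genes, 1 held the NKX2 core and 2 the FOXA core, and the windows of SFTPC and SFTPD held neither. Among 19559 windows of the same length in front of annotated genes, 9.21% held the NKX2 core and 5.21% the FOXA core. A match describes only these letters in this window.

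Before the levels are compared, 4 facts about the libraries bear on them. The total count ran from 26335584 to 67522703 in GS and from 14650700 to 21820935 in PD, with no overlap. Longer transcripts were over-represented in every GS library (Spearman rho of transcript length with the deviation of a gene from its mean, 0.0433 to 0.386) and under-represented in all PD libraries but pig 3 at 12h (−0.448 to 0.0019). Depth, this length trend and any other handling of the libraries therefore cannot be told apart from the group. The rho also moved with time in GS. In pigs 44, 55 and 77 it went from 0.196, 0.184 and 0.260 at 0h to 0.086, 0.0978 and 0.0815 at 12h. In pigs 9 and 17 it went from 0.337 and 0.354 to 0.338 and 0.313. The part of this trend in the GS changes with time was not tested. A pair of PD libraries stood apart from the rest, pig 4 at 0h with 6.39% of all its counts on SFTPC and pig 2 at 12h with 5.38%, the latter also with the lowest share of mitochondrial counts (1.65%). Where these libraries moved a difference of the 9 genes most, it is also given without them, whereas genes of the other lists are given with all libraries only. They hold the highest SFTPC level of PD at 0h and at 12h. SFTPC values without them therefore depend on how they were picked. All 9 genes were detected in every library, SFTPC with 55461 counts or more and NKX2-1, the lowest, with 270 or more.

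Levels are given as CPM, counts divided by the library total after TMM scaling. Taken per kilobase (kb) of the longest RefSeq transcript, SFTPC was the most abundant of the 9 genes in GS lungs at 0h, with a median of 4090 CPM per kb (range 3112 to 5229). SFTPA1 followed at 1303 (1096 to 1952), then SFTPB at 509 (431 to 681) and SLC34A2 at 461 (448 to 625), which overlapped. NAPSA stood at 138 (91.2 to 193) and SFTPD at 78.3 (61.0 to 85.8). LPCAT1 at 40.1, NKX2-1 at 38.5 and ABCA3 at 31.3 closed the order with overlapping ranges. In PD lungs at 0h SFTPC again led, with a median of 39344 CPM per kb (21681 to 81817), and SFTPA1 was again next with 3086.5 (667 to 3456). SFTPB, next after SFTPA1 in GS, had a median of 161 (84.7 to 394) in PD and overlapped NAPSA and SFTPD. These orders rest on annotated lengths and compare levels, not differences.

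**Figure D1:**
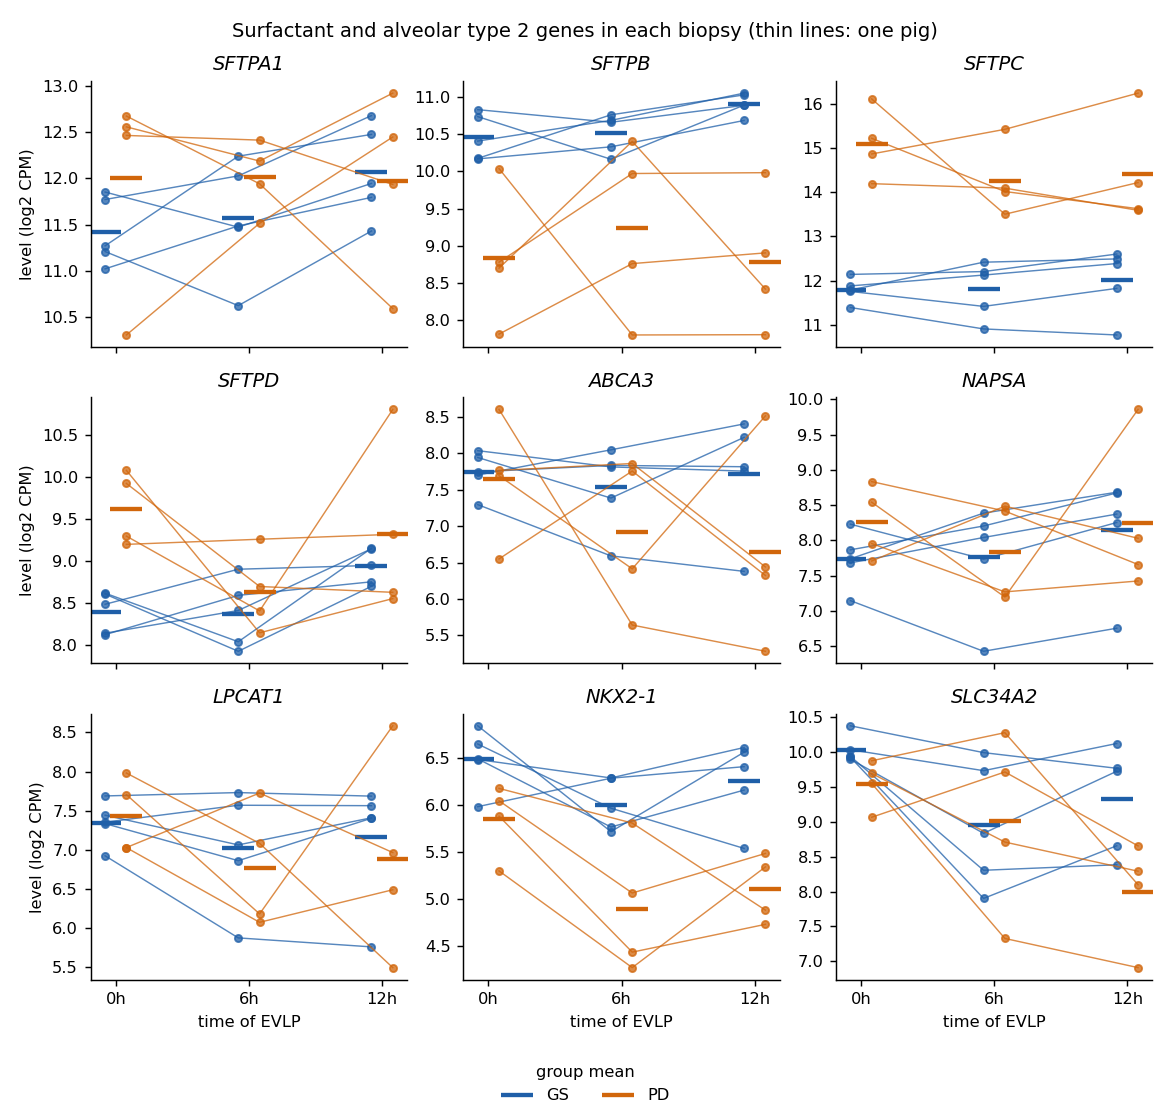
Level of the 9 genes in each of the 27 biopsies, as log2 CPM on the vertical axis against time of EVLP, with 1 thin line per pig and a bar at the mean of the 5 GS pigs (blue) or 4 PD pigs (orange). SFTPC in PD lies above every GS value at all 3 times, while SLC34A2 is lower at 6h than at 0h in all 5 GS pigs.

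The first comparison was between the lungs of the 2 groups before perfusion. SFTPC was 11.8-fold higher in PD than in GS lungs at 0h and SFTPD was 2.56-fold higher, whereas SFTPB was 2.55-fold lower. 3 of the 9 genes passed the test, edgeR's quasi-likelihood test with a Benjamini-Hochberg adjusted p under 0.05, against 40.6% of the 16477 genes tested. The share among these genes was thus below that among all genes, and a difference of this kind at 0h is common in the data. Since whole tissue was sequenced, fewer alveolar type 2 cells and less RNA per cell cannot be told apart in this or any later comparison.

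SFTPC stood at 2689, 4518, 3534, 3772 and 3460.4 CPM in GS pigs 9, 17, 44, 55 and 77, and at 29838.5, 18732, 70689.7 and 38147 CPM in PD pigs 2, 3, 4 and 5. The lowest PD lung was above the highest GS lung. The log2 difference was 3.56 (SE 0.40, adjusted p = 4.935e-05). It was 3.07 without pig 4 and 2.25 when the trend with transcript length was removed from each library, so its size on the log2 scale depended on that trend while the call held. SFTPC has the shortest transcript of the 9, 864 bases.

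SFTPB, the surfactant protein without which newborn lungs fail, went the other way. Its levels were 1149, 1154, 1355.5, 1815 and 1701.5 CPM in the GS lungs and 1049.6, 440.1, 225.6 and 416.4 CPM in the PD lungs. No PD lung reached the lowest GS lung. The log2 difference was −1.35 (SE 0.38, adjusted p = 0.0132) and ran from −1.90 without PD pig 2 to −1.10 without PD pig 4.

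SFTPD, the collectin, had 392.3, 278.7, 282.1, 358 and 389.4 CPM in GS and 627.5, 586.3, 1078 and 968.3 CPM in PD, again without overlap. Its log2 difference was 1.36 (SE 0.25, adjusted p = 0.00113). SFTPA1, its neighbour on chromosome 14 and also a collectin, had 6549, 6037 and 5661 CPM in PD pigs 2, 3 and 5 but 1263 in pig 4, against 2077 to 3698 in GS. 3 PD lungs lay above all GS lungs and pig 4 lay below them all. With all lungs its log2 difference was 0.86 (SE 0.39, adjusted p = 0.0996), and without pig 4 it was 1.18 (adjusted p = 0.00133). NAPSA had 372.6, 209.1, 248.2 and 456.2 CPM in PD pigs 2, 3, 4 and 5 against 141.7 to 300.2 in GS, so pigs 3 and 4 lay inside the GS range. Its log2 difference was 0.64 (SE 0.27, adjusted p = 0.0725), with 0.80 (adjusted p = 0.0353) without pig 3 and 0.73 (adjusted p = 0.0429) without pig 4. Without pig 4, 5 of the 9 genes passed, as did 7339 of 16828 genes in all. Without pig 3, 6237 of 16955 genes passed in all. With the length trend removed neither SFTPA1 nor NAPSA passed, SFTPA1 being at 0.47 (adjusted p = 0.356) and NAPSA at 0.04 (adjusted p = 0.911).

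The remaining genes gave smaller differences. NKX2-1 ran from 63.2 to 114.8 CPM in GS and from 39.4 to 72.3 in PD, with a log2 difference of −0.55 (SE 0.22, adjusted p = 0.0621). SLC34A2 differed by −0.38 (SE 0.22, adjusted p = 0.187). Both passed once the length trend was removed, at −0.75 (adjusted p = 0.0141) and −0.68 (adjusted p = 0.0186), where 5327 of 14027 genes passed in all. NKX2-1 also passed with DESeq2 (−0.55, adjusted p = 0.0408) and without GS pig 17 (−0.68, adjusted p = 0.0199). In all, 7518 of 16477 genes passed with DESeq2 and 6396 of 16061 without GS pig 17. ABCA3 (0.16, SE 0.34) and LPCAT1 (0.21, SE 0.24), the lipid handling pair, did not pass under any of these settings.

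The counts of SFTPC and SFTPB within a library were then set against each other, a pair chosen after their values were seen and therefore given without a test. At 0h each SFTPB count came with 2.03 to 3.91 SFTPC counts in the 5 GS lungs and with 28.4 to 313 in the 4 PD lungs. The ranges were 1.5 to 3.33 against 12.3 to 196 at 6h, and 1.07 to 2.99 against 12.2 to 345 at 12h. The ranges of this ratio did not overlap before perfusion or at either later time, but the later biopsies came from the same lungs. How many other pairs of genes have ranges without overlap was not counted, and 40.6% of single genes passed at 0h. Ratios of SFTPC to SFTPA1 overlapped at 12h (0.633 to 1.75 in GS and 1.59 to 50.3 in PD) but not at 0h or 6h. Ratios of SFTPC to NKX2-1 overlapped at none of these times. The transcripts differ in length, 864 bases for SFTPC and 2664 for SFTPB, and the ratios were not corrected for the length trend, which cannot be told apart from the group. At 0h its removal took the SFTPC difference from 3.56 to 2.25 and the SFTPB difference from −1.35 to −1.44 on the log2 scale. The highest PD ratios of SFTPC to SFTPB came from pig 4 at 0h (313) and pig 2 at 12h (345). The highest in the other PD libraries was 196, in pig 2 at 6h.

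**Figure D2:**
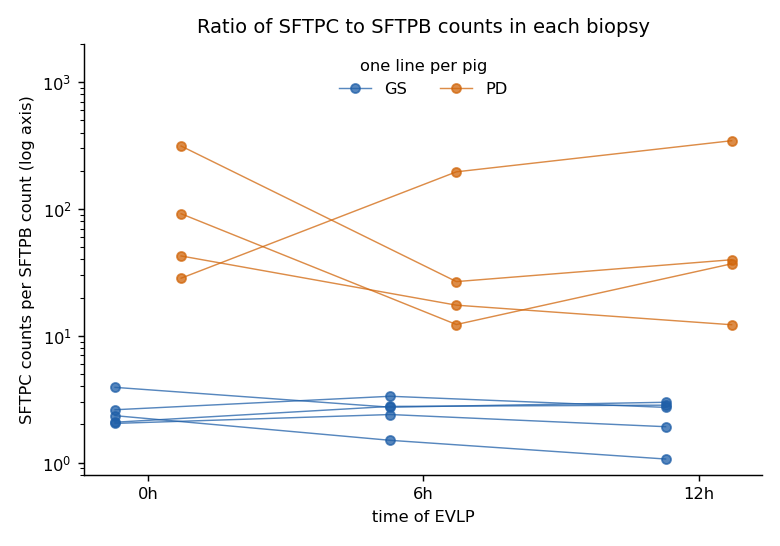
Number of SFTPC counts per SFTPB count in each biopsy, on a log axis, against time of EVLP, with 1 line per pig (GS blue, PD orange). All 15 GS biopsies lie below 4 and all 12 PD biopsies lie above 12, with no correction for transcript length.

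Other alveolar type 2 markers and markers of other cells were also compared at 0h, where 40.6% of all genes passed. Shares near or below this one are no result about a list. Of 23 other type 2 markers tested, 5 were higher and 3 lower in PD, with a median log2 difference of 0.20 against 0.0018 over all genes. SFTA2, a secreted surfactant-associated protein, was higher by 2.32 on the log2 scale (SE 0.27, adjusted p = 5.90e-05) and PLA2G1B, a secreted phospholipase, by 2.27 (SE 0.33, adjusted p = 0.000247). ADGRF5, a receptor on type 2 and endothelial cells that restrains surfactant pool size, was lower (log2 difference −1.52, SE 0.23, adjusted p = 0.000311). Of 12 general epithelial markers 6 were higher and none lower, among them CLDN7 at 2.33 and KRT8 at 1.78. Airway markers summed to 407 to 1371 CPM in GS and 1294 to 4539 CPM in PD. In that list 3 of 10 were higher, led by SCGB3A1 at 4.21 (SE 0.66, adjusted p = 0.000444). CAPS, an airway gene, had between 0 and 6 counts per library. Among the other lists, 2 higher and 4 lower genes were found for lymphocytes and for fibroblasts and smooth muscle (10 each), 3 and 5 of 10 for endothelium, 0 and 3 of 10 for macrophages, 2 and 1 of 7 for neutrophils and 2 and 1 of 11 for alveolar type 1 cells. The part of these cells in the surfactant differences was not tested.

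Genes of the surfactant pathway passed at 0h in both directions, 9 of 19, 11 of 30, 16 of 39 and 7 of 15 in the lists below, which is near the 40.6% of all genes. Of 19 genes of surfactant processing and secretion, 5 were higher in PD and 4 lower. RAB38, a small GTPase of lamellar body formation, was higher by 1.91 (SE 0.41) and CTSH, a cathepsin that cleaves SFTPB and SFTPC precursors, by 0.99 (SE 0.20). SYT7, a calcium sensor of exocytosis, was lower (−1.48, SE 0.40). Of 30 transcription factors and growth signals, 6 were higher and 5 lower, among them the receptor ERBB3 at 2.53 and AXIN2, a target of Wnt signalling, at −2.12. Of 39 genes of lipid synthesis, 9 were higher and 7 lower, with CHPT1, which joins phosphocholine to diacylglycerol, at 1.47 (SE 0.21) and SREBF1, the transcription factor of fatty acid synthesis, at −2.14 (SE 0.43). Of 15 clearance genes, 3 were higher and 4 lower, with FABP4, a fatty acid binding protein of macrophages and fat cells, at 4.29 (SE 0.47) and the cholesterol exporter ABCA1 at −1.76 (SE 0.40).

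The second comparison followed GS lungs from 0h to 6h. SLC34A2, the phosphate transporter, fell 2.2-fold, and no other gene of the 9 passed. This was 1 of 9 against 28.5% of the 18594 genes tested. SLC34A2 levels in pigs 9, 17, 44, 55 and 77 were 972.9, 981, 1047.9, 1329 and 953.4 CPM at 0h, and 239.2, 316.3, 850.9, 1018 and 456.7 CPM at 6h. It was lower at 6h in all 5 pigs. The log2 change was −1.14 (SE 0.25, adjusted p = 0.00573), and it kept its call when any pig was left out, at −0.87 to −1.34. In the fit with no replicate block for the pig it was −0.92 with an adjusted p of 0.135, and with all 27 libraries in 1 fit it was −1.13 with an adjusted p of 0.0568.

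NKX2-1 stood at 89.5, 63.2, 89.9, 100.3 and 114.8 CPM at 0h and at 78.1, 78, 54.4, 62.5 and 52.6 CPM at 6h. It was lower in 4 of 5 pigs, with a log2 change of −0.53 (SE 0.20, adjusted p = 0.0675), and pig 17, which went up, decided the call: without it the change was −0.71 (adjusted p = 0.0281). In all, 4214 of 18810 genes passed without pig 17. The 4 surfactant proteins had fitted log2 changes close to 0, with 0.10 for SFTPA1, 0.02 for SFTPB, −0.03 for SFTPC and −0.04 for SFTPD (SE 0.15 to 0.19). Each was higher in 3 pigs and lower in 2. ABCA3 (−0.26), NAPSA (−0.03) and LPCAT1 (−0.38, SE 0.19, adjusted p = 0.142) did not pass.

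The third comparison set 12h against 0h in GS. SFTPA1 rose 1.45-fold and SLC34A2 was 1.75-fold lower. These were 2 of 9 genes, against 38.4% of the 18594 tested, and neither reached 2-fold, where 15.7% of all genes tested passed with at least that change. SFTPA1 went from 2365, 2077, 3497, 2469 and 3698 CPM at 0h to 2760.3, 3553.5, 6572, 5704.5 and 3946 CPM at 12h. All 5 pigs were higher. Its log2 change was 0.53 (SE 0.19, adjusted p = 0.0376), but the call was lost without pig 17 (adjusted p = 0.106), pig 44 (0.142) or pig 55 (0.109), and in the fit with no replicate block (0.60, adjusted p = 0.168).

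SLC34A2 at 12h had 403.7, 334.2, 1114.5, 871.3 and 846.1 CPM, lower than at 0h in 4 of 5 pigs and slightly higher in pig 44. The log2 change was −0.81 (SE 0.25, adjusted p = 0.0210), and the call was lost without pig 9 (adjusted p = 0.0839) or pig 17 (0.106) and with no replicate block (−0.65, adjusted p = 0.250). These are the pigs with the lowest 12h levels.

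SFTPD and SFTPB were just outside the threshold. SFTPD went from 392.3, 278.7, 282.1, 358 and 389.4 CPM to 567.8, 430.8, 565.3, 493 and 415.2 CPM, higher in all 5 pigs, with a log2 change of 0.46 (SE 0.18, adjusted p = 0.0602). SFTPB reached 1641.6, 2081.6, 2116.4, 1889.7 and 1893.8 CPM, also higher in all 5 pigs, with 0.36 (SE 0.15, adjusted p = 0.0700). Both passed with DESeq2 (adjusted p = 0.0258 and 0.0264) and with its size factors in edgeR (0.0377 and 0.0374), where 4 of the 9 genes were called in each, as were 8036 and 6995 of 18594 genes in all. SFTPC, by contrast, changed by 0.14 (SE 0.17, adjusted p = 0.544).

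NAPSA and LPCAT1 had 1 pig far below the rest. NAPSA had a log2 change of 0.31 (SE 0.19, adjusted p = 0.209), and SFTPC and NAPSA both passed without pig 9 (0.40 with adjusted p = 0.0458, and 0.57 with adjusted p = 0.0200). In that setting 3 of the 9 genes passed, all higher, as did 7585 of 18839 genes in all. Pig 9 ended at 108 CPM of NAPSA, where the other GS pigs had 305.2 to 411. LPCAT1 (−0.27, SE 0.19), ABCA3 (−0.10, SE 0.19) and NKX2-1 (−0.32, SE 0.20) did not pass.

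**Figure D3:**
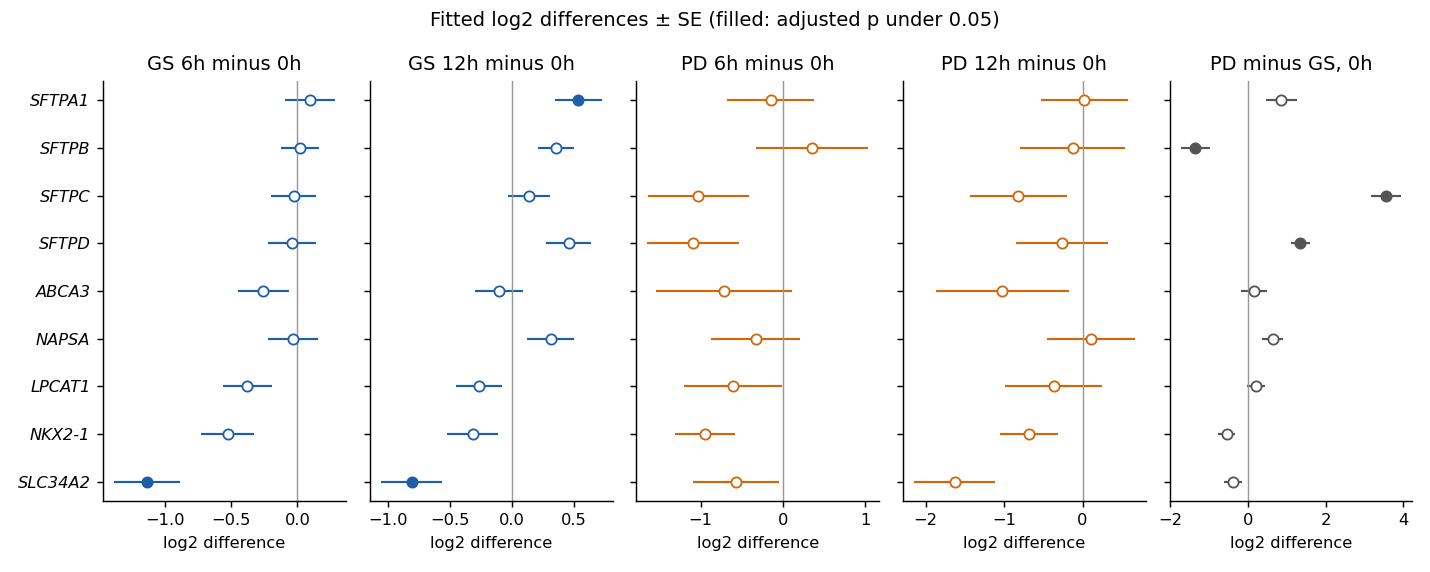
Fitted log2 differences of the 9 genes with their SE (horizontal axis, a separate scale in each panel) for 6h and 12h minus 0h in GS (blue) and PD (orange) and for PD minus GS at 0h (grey), with filled points at an adjusted p under 0.05. SLC34A2 lies left of 0 in all 5 panels, and error bars are wider in the PD time panels, where no point is filled.

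From 6h to 12h no gene of the 9 passed in GS, where 0% of 18594 genes passed edgeR's test. SFTPD (log2 change 0.50), SFTPA1 (0.44) and SFTPB (0.34), each higher in all 5 pigs, were among the 882 genes with an unadjusted p under 0.05. DESeq2 called 2 genes, neither of them among the 9.

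In the PD group, none of the 9 genes passed at 6h or at 12h. The background was 0.142% of 15545 genes at 6h and 5.98% at 12h. At an unadjusted p under 0.05 there was 1 of the 9 at 6h (1463 genes in all) and 1 at 12h (3812 genes in all). DESeq2 called 437 genes at 6h, none of them among the 9, and 2767 at 12h, SLC34A2 included. The SEs of the 9 changes were 0.37 to 0.83 at 6h, against 0.15 to 0.25 in GS. In counts simulated for 12h against 0h with the spread and depth of these libraries, 1 of 100 genes changed by 1 on the log2 scale was recovered in PD and 65 of 100 in GS. For genes changed by 2, these were 14 and 97 of 100. Only 200 genes were changed in that simulation, while in the data 930 passed in PD and 7136 in GS at 12h. The adjustment was therefore stricter there, and these shares do not give the chance of a call in the data.

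SLC34A2 had 828.2, 535.7, 749.4 and 938.9 CPM in PD pigs 2, 3, 4 and 5 at 0h, and 418.6, 840.1, 160.7 and 1241.2 CPM at 6h. At 12h it had 313.4, 403.1, 120.3 and 274 CPM, below the 0h level in all 4 pigs and below every 0h value of the group. Its log2 change to 12h was −1.63 (SE 0.52, adjusted p = 0.0840), and it passed with DESeq2 (−1.58, adjusted p = 0.0161), with all 27 libraries in 1 fit (−1.62, adjusted p = 0.00874) and without pig 2 (−1.79, adjusted p = 0.0466). At 6h it was −0.57 (SE 0.52), with 2 pigs up and 2 down.

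SFTPC in PD went from 29838.5, 18732, 70689.7 and 38147 CPM at 0h to 43897, 17465, 11602 and 16561 CPM at 6h and 77429, 12336.5, 19059 and 12654 CPM at 12h. Pig 2 went up at each step while the other 3 pigs were below their own 0h level at both later times. The log2 change to 12h was −0.82 (SE 0.62, adjusted p = 0.452), and without pig 2 it was −1.51 (adjusted p = 0.0348). With pig 2 left out, SFTPC and SLC34A2 were the 2 of the 9 that passed, with 4000 of 15703 genes passing in all. Without the libraries of pig 2 at 12h and pig 4 at 0h none of the 9 passed at 12h (3561 of 15651 genes in all), and SFTPC changed by −0.64 (adjusted p = 0.350) and SLC34A2 by −1.11 (adjusted p = 0.0751).

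NKX2-1 was lower at 6h in all 4 PD pigs, from 58.9, 66, 39.4 and 72.3 CPM to 21.6, 33.4, 19.3 and 56 CPM. Its log2 change was −0.95 (SE 0.37) with an unadjusted p of 0.0250, which became 0.454 after adjustment. At 12h it was −0.68 (SE 0.37, adjusted p = 0.277). SFTPD changed by −1.09 (SE 0.56, adjusted p = 0.576) at 6h and −0.26 (SE 0.58) at 12h, and ABCA3 by −0.71 (SE 0.83) and −1.02 (SE 0.85). The change of ABCA3 at 12h hung on single pigs, being −1.97 without pig 2 (adjusted p = 0.0668) and −0.01 without pig 4. Without the 2 libraries that stood apart, the changes at 6h and 12h were −1.01 and −0.75 for NKX2-1, −0.75 and −0.59 for SFTPD and −0.07 and −0.98 for ABCA3. SFTPB levels in PD ranged from 223.7 to 1351.7 CPM over the later biopsies, with log2 changes of 0.35 (SE 0.68) and −0.13 (SE 0.67). With 1 pig left out these ran from −0.27 to 1.29 at 6h and from −0.62 to 0.73 at 12h. SFTPA1, NAPSA and LPCAT1 had changes smaller than their SE or close to it, between −0.60 and 0.11. LPCAT1 at 12h went from −0.37 to −1.27 (adjusted p = 0.0805) without the 2 libraries and to −1.06 without pig 2, and NAPSA went from 0.11 to −0.61 (adjusted p = 0.294) without the 2 libraries. From 6h to 12h none of the 9 passed in PD, where edgeR called 0% of the genes, 1562 genes had an unadjusted p under 0.05 and DESeq2 called 235.

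The question of the study, whether dialysis altered the response to EVLP, was addressed here only by the difference between the PD and GS changes in RNA. The study also drew on cytokine protein in the perfusate and on pulmonary artery pressure. Its own Wilcoxon comparison of fold changes gave a list of genes at an adjusted p below 0.05. None of the 9 genes passed at 6h or 12h, and 0% of 17884 genes passed in edgeR at either time. At an unadjusted p under 0.05 there were 1046 genes at 6h and 1069 at 12h, none of them among the 9, and DESeq2 called 7 and 15. Without PD pig 2, edgeR called 254 genes at 6h and 153 at 12h, none of them among the 9. SFTPC had the difference with the lowest p at 12h, −0.98 (SE 0.57, adjusted p = 0.888), and it was −1.63 without PD pig 2 (adjusted p = 0.0530) and −0.43 without PD pig 4 (adjusted p = 0.924). SFTPD at 12h went likewise from −0.75 to −1.48 without pig 2 (adjusted p = 0.0553) and −0.22 without pig 4. At 6h SFTPD had the lowest p, −1.05 (SE 0.54, adjusted p = 0.783). SLC34A2 differed by 0.56 (SE 0.55) at 6h and −0.84 (SE 0.54) at 12h. Without PD pig 4 these were 1.17 and −0.37, and without PD pig 5 the 6h value was 0.14. Without the 2 libraries that stood apart none of the 9 passed. The differences then ran from −0.76 (SFTPD) to 1.03 (SLC34A2) at 6h. At 12h they ran from −1.10 (SFTPD) to −0.32 (SFTPB), with LPCAT1 going from −0.13 to −1.05, NAPSA from −0.23 to −0.97 and SLC34A2 to −0.35. All 9 fitted differences were negative at 12h, with a median of −0.55 against −0.0072 over all genes. The sign of 5 of them depended on 1 PD pig. SFTPA1 (0.07) and SFTPB (0.37) turned without pig 2, ABCA3 (0.04) and NAPSA (0.03) without pig 4, and NAPSA (0.19) and LPCAT1 (0.47) without pig 5. In the exact Wilcoxon test on the changes of each pig, a test of the kind the study ran on fold changes, the lowest adjusted p over all genes was 0.522 at 6h and 0.726 at 12h. With 4 and 5 pigs this exact test cannot give a p below 0.0159 for a gene, so after adjustment over 17884 genes it could hardly pass.

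Other surfactant genes were followed in GS lungs, where 28.5% of all genes passed at 6h and 38.4% at 12h. The counts in the surfactant lists below are to be read against these shares, and several lie near or below them. Of 19 genes of processing and secretion, 4 rose and 6 fell at 6h, and 5 rose and 6 fell at 12h. P2RY2, the purinergic receptor that triggers surfactant secretion, rose by 1.38 on the log2 scale at 6h and 1.41 at 12h. CKAP4, a receptor for SFTPA1 on type 2 cells, rose by 1.37 and 1.795, and STX3, a syntaxin of exocytosis, by 1.32 and 1.59. HPS1 and AP3B1, which build lysosome-related organelles such as the lamellar body, fell by 0.73 and 0.79 at 6h and by 0.80 and 0.81 at 12h. The flippase ATP8A1 fell by 0.72 and 0.50, and ANXA7, an annexin of lamellar body fusion, rose by 0.52 and 0.63.

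Of 39 lipid synthesis genes, 10 rose and 5 fell at 6h and 11 rose and 4 fell at 12h, with medians of 0.14 and 0.19 against −0.05 and −0.08 over all genes. CHKA, the choline kinase at the start of phosphatidylcholine synthesis, rose by 1.03 at 12h and the acyltransferase LPCAT3 by 1.08. ELOVL1 and ACSL4, which lengthen and activate fatty acids, rose by 0.86 and 0.95 at 6h. CEPT1, which completes phosphatidylcholine, fell by 0.77 and 0.85, and the phospholipase PLA2G4A by 0.90 and 1.09. Of 15 clearance genes, 4 rose and none fell at both times, among them the cholesterol exporter ABCG1 at 1.31 and 1.26, the lysosomal cholesterol carrier NPC1 at 0.76 and 1.11, and CSF2RB, the shared chain of the receptor for granulocyte-macrophage colony stimulating factor, at 0.54 and 0.60. Clearance genes are also expressed by macrophages, of whose 10 markers none passed at 6h and 1 fell at 12h. MARCO and MSR1 stand in both lists. Whether macrophages had a part in these changes was not tested.

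Among 30 transcription factors and growth signals of type 2 cells, 5 rose and 7 fell at 6h, and 10 rose and 5 fell at 12h in GS, against 28.5% and 38.4% of all genes in either direction. CEBPD rose by 1.52 at 6h and 1.70 at 12h, and SOX9, a factor of distal lung progenitors, by 0.88 and 1.13. ELF3, an epithelial factor, rose by 1.77 at 12h. FOXA2, the partner of NKX2-1, fell by 0.60 and 0.54, ETV5, which maintains type 2 cells, fell by 0.60 and 0.66, and HHIP, an inhibitor of hedgehog signalling, by 0.99 and 1.19. Of 23 other type 2 markers, 2 rose and 6 fell at 6h, and 3 rose and 5 fell at 12h. AREG, a ligand of the epidermal growth factor receptor that many cells make when stressed, rose by 3.75 and 3.94. CA2, a carbonic anhydrase, fell by 0.89 and 0.95.

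Markers of other cells were counted in GS against the same 28.5% of all genes at 6h and 38.4% at 12h. Of 12 general epithelial markers, 5 rose and none fell at both times, with EPCAM at 1.09 and 1.58 and KRT8 at 0.96 and 1.18, and their summed level went from 677 to 1047 CPM at 0h to 1532 to 2448 CPM at 12h. Of 10 lymphocyte markers, 7 fell at 6h and 8 at 12h, and their sum went from 309 to 587 CPM at 0h to 156 to 445 CPM at 12h. Airway markers fell in 1 of 10 at 6h and in 5 of 10 at 12h, including BPIFA1 by 3.05 and SCGB1A1 by 1.61. Of 11 alveolar type 1 markers, 2 rose and 1 fell at both times, PDPN rising by 1.24 and 1.42. Among 10 endothelial markers 2 fell at 6h, and 1 rose and 3 fell at 12h, while 1 of 7 neutrophil and 1 of 10 fibroblast and smooth muscle markers fell at both times. The part of these cells in the changes of SLC34A2 and SFTPA1 was not tested.

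**Figure D4:**
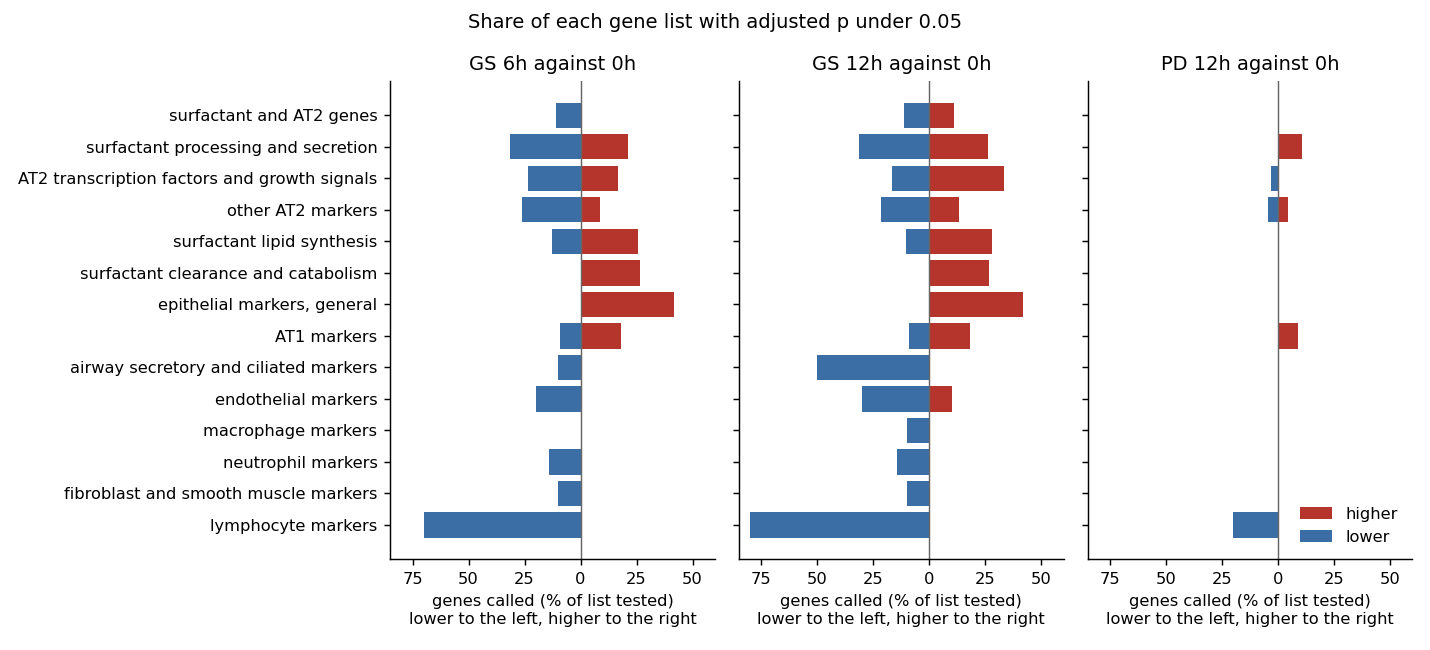
Share of the tested genes of each list that were called higher (red, to the right) or lower (blue, to the left) at an adjusted p under 0.05, as percent of the list, in GS at 6h and 12h and in PD at 12h. In GS the general epithelial list has calls on the higher side only and the lymphocyte list on the lower side only. Not drawn are the shares over all genes, 28.5% in GS at 6h, 38.4% in GS at 12h and 5.98% in PD at 12h.

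In PD, 5.98% of all genes passed at 12h and 0.142% at 6h, against which the calls in these lists are to be read. P2RY2 (1.99, adjusted p = 0.0364) and STX3 (1.98, adjusted p = 0.0341) rose at 12h among 19 genes of processing and secretion, AREG rose by 3.09 (adjusted p = 0.0170) and PDPN by 1.74 (adjusted p = 0.0282), and HHIP fell by 1.48 (adjusted p = 0.0310). None of 39 lipid synthesis, 15 clearance or 12 general epithelial genes passed, with ELOVL1 (1.30, adjusted p = 0.0685), NPC1 (1.55, adjusted p = 0.0534) and KRT18 (1.54, adjusted p = 0.0580) nearest to it. At 6h no gene of any of these lists passed in PD, the nearest being AREG at 2.57 (adjusted p = 0.0702). MS4A1 and CD3D, of B and T cells, fell by 2.39 and 1.58 at 12h. For the difference between the PD and GS changes, no gene of any of these lists passed at either time.

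Lastly, the genes whose levels ran most like SFTPC were sought over the 27 libraries, after subtracting the mean of each pig. Among 17884 genes MGST2, a glutathione transferase, was the most alike (Pearson r 0.955), followed by DNASE2, a lysosomal nuclease (0.901), THAP11 (0.898), TMED3 (0.894) and SMIM4 (0.890). These values are a description over libraries that share pigs, depth and a length trend. Of the other 8 surfactant and type 2 genes SFTPD came closest (0.768), then ABCA3 (0.758), LPCAT1 (0.622), NAPSA (0.596) and SLC34A2 (0.439). NKX2-1 was at 0.211, and SFTPA1 (−0.368) and SFTPB (−0.397) ran against SFTPC.

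The 2 groups gave different orders. Over the 15 GS libraries NAPSA ranked first among all genes with SFTPC (0.923), and SFTPA1 (0.663) and SFTPB (0.454) ran with it. Over the 12 PD libraries SFTPA1 was at −0.624 and SFTPB at −0.518. Without PD pig 4 at 0h and PD pig 2 at 12h, SFTPA1 came to 0.0319 and SFTPB to −0.25 over all remaining libraries, and SFTA2, a further surfactant-associated gene, ranked second with 0.871. Among the 36 pairs of the 9 genes, 30 correlated positively in GS (median r 0.38) and 27 in PD (median 0.36). SFTPA1 with SFTPD (0.888 in GS), the neighbouring collectins, and SFTPB with SFTPD (0.80) were among the closest pairs in GS. In PD, SFTPA1 with ABCA3 was the most opposed (−0.658). Without the 2 PD libraries that stood apart, this pair came to −0.257 and SFTPA1 with SFTPC to −0.188, 32 of 36 pairs were positive, and SFTPB with SFTPC was the most opposed (−0.381).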

How the data were processed

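Stranded paired-end mRNA libraries were made from biopsies of 9 pigs, 27 in all (GS 15, PD 12). RNA was extracted by 1 of 2 methods, not given per library. The authors deposited unnormalized read counts per gene, and the submitters' processing notes name bcl2fastq 2.2.18.12, cutadapt 1.15, TopHat2 2.0.14, Subread 1.6.0 with featureCounts, DESeq2 1.18.1, Sscrofa 11.1 and Ensembl release 101. Settings for strand and multi-mapped reads are not given in the sources used here, so reads of near-identical or overlapping genes may be shared. Total counts (medians 53623755 in GS and 19344265 in PD) set the floor of 3 counts at 0.205 CPM or less, which covers counting error only.

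Of the 31908 genes, 16719 were named in the table and 782 through a gene name table. Of 225 genes asked for in the lists, 205 were matched. The members and lists were chosen with earlier results of these data known. Counts were tested with edgeR 4.0.16 (limma 3.58.1, R 4.3.3) by the robust quasi-likelihood test, with TMM scaling, filterByExpr and Benjamini-Hochberg adjustment over all genes tested, and a gene was called at an adjusted p under 0.05. Time was tested within each group with the pig as a replicate block, because the labels give all 3 biopsies to the same lung. After group and time means were removed, 2 libraries of 1 lung correlated on average at 0.517 (GS) and 0.116 (PD). The PD and GS changes were compared in a fit of all 27 libraries, and the groups at 0h in a fit of the 9 libraries. Genes named from a list were up to 4 called in each direction with the largest change in every pig, or the 2 with the lowest p where none was called. FOXA2 at 12h was added after its value was seen. Some genes stand in more than 1 list.

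Alternatives were no block, a single fit, DESeq2 1.42.0, its size factors, no filter, a fold of at least 2, GS counts thinned to the PD depth, an exact Wilcoxon test, and each pig left out. Chosen after seeing the data were removal of the length trend (void for GS alone, where 78.64% of the genes had a length) and leaving out PD libraries or pigs. The test was checked on simulated data. No pair of libraries was alike within sampling noise (smallest chi-square per degree of freedom 39.85). Upstream sequences came from RefSeq (Sscrofa11.1), where all 10 genes matched, and 1 of them is not reported here.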

Additional observations from a re-analysis of the deposited data

Results flagged for a closer look

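In 4 of 54 sets of 4 or 5 libraries (9 genes, 2 groups, 3 times), 1 pig lay far from the others by Dixon's gap test, which chance gives in about 1 in 20 sets. SFTPA1 in PD pig 4 at 0h was at 10.3 log2 CPM, with the other 3 pigs at 12.47 to 12.68. NAPSA in GS pig 9 at 12h was at 6.76 log2 CPM, with the other 4 at 8.25 to 8.68, and LPCAT1 in the same library was at 5.76, with the others at 7.40 to 7.69. SLC34A2 in GS pig 55 at 0h was at 10.38 log2 CPM, with the others at 9.90 to 10.03.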

How the results depend on the processing

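The 3 differences at 0h (SFTPC, SFTPD, SFTPB) kept their direction and call under every alternative run. The number of the 9 genes called moved elsewhere. Without the replicate block it went from 1 to 0 for GS 6h (1731 of 18594 genes in all). For GS 12h it went from 2 to 0 (3083 of 18594). With all 27 libraries in 1 fit it was 0 for GS 6h and GS 12h (1606 and 2883 of 17884). For PD 12h it went from 0 to 1 in that fit (4093 of 17884). DESeq2 gave 4 for GS 12h (8036 of 18594 genes in all) and 1 for PD 12h (2767 of 15545). At 0h it gave 4 (NKX2-1 added, with 7518 of 16477 genes passing in all). The size factors of DESeq2 (6995 of 18594 genes in all) and GS counts thinned to the PD depth (6333 of 16179) each gave 4 for GS 12h. A fold of at least 2 gave 0 for GS 12h (2911 of 18594 genes in all). At 0h, 5 passed with the length trend removed (5327 of 14027 genes in all). There were also 5 without PD pig 4 at 0h and PD pig 2 at 12h (7339 of 16828 genes in all). With PD pigs 2 and 4 left out, 3 passed as higher and 1 as lower at 0h (5695 of 17455 genes in all). Without PD pigs 2 and 4, which leaves pigs 3 and 5 only, 2 passed for PD 12h against 6h (ABCA3 and SLC34A2). In that setting 2063 of 15833 genes passed in all. Leaving out 1 pig gave 1 to 2 for GS 6h, 0 to 4 for GS 12h, 0 to 2 for PD 12h, 3 to 5 at 0h and 0 to 0 otherwise. The median r of the other 8 genes with SFTPC was 0.52, and 0.06 with no pig mean removed.

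Genes called overall for GS 6h numbered 5295, against 1731 with no block, 1606 in 1 fit and 2057 at 2-fold, and for GS 12h 7136, against 3083, 2883 and 2911. For PD 6h these were 22, 100 and 512, with 437 by DESeq2, 103 with no filter, 54 with the length trend removed, 411 without the 2 libraries and 552 without the 2 pigs. For PD 12h there were 930, against 1488, 4093, 2767 by DESeq2, 3561 and 4460. For PD 12h against 6h, none became 492 in 1 fit, 235 by DESeq2, 680 and 2063, and for the difference of changes 211 at 6h and 8 at 12h without the 2 pigs. Leaving out 1 pig gave 2720 to 4828 for GS 6h, 4639 to 7585 for GS 12h, 0 to 98 for PD 6h and 0 to 4000 for PD 12h. The cause was not tested.

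The directions that turned all belonged to genes not called in that comparison. With no replicate block these were SFTPC (0.07) and NAPSA (0.08) for GS 6h, ABCA3 (0.01) for GS 12h, SFTPA1 (−0.03) and SFTPD (0.01) for PD 12h, ABCA3 (0.06) for PD 12h against 6h and LPCAT1 (0.00) for the difference of changes at 12h. SFTPC for GS 6h was 0.00 by DESeq2, 0.00 with its size factors and 0.01 thinned, and NAPSA 0.01 thinned. With the length trend removed SFTPC was −0.07 for PD 12h against 6h. Without the 2 PD libraries the values were SFTPB 0.09 and NAPSA −0.61 for PD 12h, SFTPC −0.22, NAPSA −0.21 and LPCAT1 −0.49 for PD 12h against 6h, ABCA3 0.13 for the difference at 6h and −0.27 at 0h. Without PD pigs 2 and 4 they were ABCA3 0.66, NAPSA 0.16 and SLC34A2 0.55 for PD 6h, SFTPA1 0.00, SFTPB 0.61 and NAPSA −0.43 for PD 12h, SFTPC −0.46, SFTPD 0.00, NAPSA −0.59, LPCAT1 −1.09 and NKX2-1 −0.25 for PD 12h against 6h, ABCA3 0.86, NAPSA 0.13 and LPCAT1 0.11 for the difference at 6h, SFTPB 0.21 at 12h, and ABCA3 −0.42 between groups at 0h.

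Leaving out 1 pig turned further values. For GS 6h the ranges were −0.17 to 0.14 (SFTPC and SFTPD), −0.18 to 0.20 (NAPSA), −0.10 to 0.18 (SFTPB) and −0.11 to 0.31 (SFTPA1). For GS 12h they were −0.27 to 0.17 (ABCA3) and −0.36 to 0.03 (LPCAT1), and for GS 12h against 6h −0.01 to 0.26 (ABCA3). For PD 6h they were −0.39 to 0.13 (SFTPA1), −1.50 to 0.27 (ABCA3), −0.99 to 0.07 (SLC34A2) and −0.27 to 1.29 (SFTPB). For PD 12h they were −0.62 to 0.73 (SFTPB), −0.55 to 0.49 (NAPSA), −0.62 to 0.62 (SFTPA1), −1.04 to 0.29 (SFTPD) and −1.06 to 0.20 (LPCAT1). For PD 12h against 6h they were −0.15 to 0.49 (SFTPC), −0.36 to 0.84 (NAPSA), −0.59 to 0.70 (LPCAT1), −0.23 to 0.49 (SFTPA1), −1.25 to 0.29 (ABCA3), −0.03 to 0.67 (NKX2-1) and −0.75 to 0.10 (SFTPB). For the difference of changes they were −0.54 to 0.02 (SFTPA1), −1.23 to 0.49 (ABCA3) and −0.31 to 1.26 (SFTPB) at 6h, and −1.21 to 0.07 (SFTPA1), −0.97 to 0.37 (SFTPB), −1.85 to 0.04 (ABCA3), −0.85 to 0.19 (NAPSA) and −0.79 to 0.47 (LPCAT1) at 12h. For ABCA3 at 0h it was −0.27 to 0.42.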
